A study of Mus musculus with 8 samples.

Results

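The nuclear-encoded subunits of the mitochondrial respiratory chain were taken as the genes whose symbols start with Nduf (subunit series a, b, c, s and v), Sdha to Sdhd, Uqcr, Cyc1, Cox4 to Cox8 or Atp5, leaving out symbols marked as pseudogenes or related sequences. This rule found 89 genes of the 37310 in the count table, 40 of complex I, 4 of complex II, 9 of complex III, 19 of complex IV and 17 of complex V. The annotation lists 85 of them as protein coding and 4 as processed pseudogenes, Ndufa11b, Ndufb4c, Ndufs6b and Cox6c2, which the rule keeps because their symbols lack a pseudogene mark. Of the 89, 81 passed the filter on low counts and were tested.

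The study knocked down the RNA helicase eIF4A3 in mouse embryonic stem cells and sequenced poly-A RNA, with 8 libraries in 4 groups of 2. In the J1 line (strain 129S4/SvJae) the groups were eIF4A3 knockdown with a control overexpression (labelled KD here), eIF4A3 knockdown with overexpression of Ccnb1, the cyclin B1 gene (labelled KD+Ccnb1), and control knockdown with control overexpression (control). The fourth group was eIF4A3 knockdown in the CCE line (strain 129/Sv), for which no control library was analysed here, so its values are levels only. Per the labels, all cells were grown without feeder cells, infected with lentivirus, selected with puromycin at 1 μg/mL for 2.5 days and collected on day 4.5. Separate cultures are not named in the labels, so p-values measure only the spread between these libraries, which may be technical.

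The respiratory chain passes electrons from NADH (complex I, NADH dehydrogenase) or succinate (complex II, succinate dehydrogenase) through complex III to complex IV, cytochrome c oxidase, which reduces oxygen. Complexes I, III and IV pump protons, and complex V, ATP synthase, uses the gradient to make ATP. Most subunits are encoded in the nucleus and a few in mitochondrial DNA. Many of the small subunits have intronless processed copies elsewhere in the mouse genome, and embryonic stem cells are known to rely strongly on glycolysis while keeping a working chain.

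Gene counts were 4398141 and 3596615 in labelled KD, 5871830 and 6620504 in labelled KD+Ccnb1, 5740965 and 8340023 in control and 23965806 and 25573379 in CCE. Eif4a3 stood at 75.7 and 37.5 CPM (gene counts scaled to a common library total) in labelled KD and 47.3 and 53.5 CPM in labelled KD+Ccnb1, against 73.5 and 83.7 CPM in control, so 1 library labelled KD was at the control level. Ccnb1 stood at 136 and 131 CPM in labelled KD+Ccnb1, against 135 and 129 CPM in control. Reads that did not align made up 40.8% and 45.2% of the labelled KD libraries and 15.7% to 15.9% of the other J1 libraries. Relative to Poisson noise, the libraries within a group varied by a factor of 22 in labelled KD, 1.88 in labelled KD+Ccnb1 and 3.41 in control. Summed embryonic stem cell markers were 3933 and 3629 CPM in labelled KD, where all 8 fell, 7540 CPM in each labelled KD+Ccnb1 library, where 3 rose and 2 fell, and 8122 and 8093 CPM in control. Of all tested genes, 17.9% fell in labelled KD against control, and 9.35% rose and 10.5% fell in labelled KD+Ccnb1 against control. Of 8 fibroblast and feeder markers 3 were tested, and all 8 together summed to 18.8 to 38.8 CPM over all libraries. In J1, Col3a1, Postn and Dcn were at 0, and Col1a1 rose in labelled KD, at 14.3 and 17.2 CPM, against 1.39 and 1.08 CPM in control. Col1a2 was at 0 in both labelled KD libraries. Thy1, at 6.37 and 17.0 CPM in labelled KD against 13.8 and 7.55 CPM in control, was not called there. Pdgfrb, at 9.55 and 2.50 CPM against 6.79 and 10.1 CPM, was not called either. The 5 muscle and heart markers summed to 2.27 to 41.9 CPM, and neither of the 2 tested was called against control. The part of these differences in the results that follow was not tested.

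A share of the counts lay in processed copies rather than in the genes themselves. Copies were sought by aligning each coding sequence to annotated pseudogenes, at 90% identity or more over at least 100 bases. Of the 85 coding members, 31 had at least 1 copy, with 55 copies in all. The stretches shown here are the 60 bases of coding sequence centred on an exon junction of 4 members, each with the matching stretch of its copy, because they lie across a junction in the gene but form unbroken sequence in the copy. Capitals mark bases that differ, and the rest is identical. They come from the mouse reference annotation and run 5′ to 3′ on the coding strand.
Ndufs6: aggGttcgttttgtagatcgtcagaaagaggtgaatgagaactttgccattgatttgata
Ndufs6b: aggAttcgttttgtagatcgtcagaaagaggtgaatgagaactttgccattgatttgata
Cox6c: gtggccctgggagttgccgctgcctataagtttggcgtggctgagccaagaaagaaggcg
Cox6c2: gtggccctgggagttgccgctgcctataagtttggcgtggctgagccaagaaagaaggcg
Cox7c: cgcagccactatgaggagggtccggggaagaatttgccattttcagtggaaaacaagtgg
Gm12338: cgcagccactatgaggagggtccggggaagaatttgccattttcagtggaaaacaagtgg
Atp5o: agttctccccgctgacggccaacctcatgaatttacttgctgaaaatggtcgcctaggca
Gm5436: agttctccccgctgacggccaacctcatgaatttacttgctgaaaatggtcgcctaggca

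Ndufs6, a zinc-binding subunit of complex I on chromosome 13, and Ndufs6b on chromosome 7 differed at 1 base in this stretch, and shared 90.3% of 371 aligned bases. Cox7c, a small subunit of complex IV on chromosome 13, and Gm12338 on chromosome 11 were identical over the whole coding sequence of 189 bases. Counts of such pairs are uncertain, since how reads that fit both places were assigned is not given in the sources used here.

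The copies held 25.2% and 22.8% of the counts of members and copies together in labelled KD, 32.3% and 32.4% in labelled KD+Ccnb1, and 31.3% and 30.6% in control. In CCE they held 0.355% and 0.346%. The J1 libraries all stood far above the CCE libraries, and reads marked as not unique were counted in CCE (9.71% and 10.03%) but in none of the J1 libraries, so the lines were not counted in the same way and their levels are not compared as biology. Ndufs6b had 96.6 and 86.7 CPM in labelled KD, 72.9 and 77.2 CPM in labelled KD+Ccnb1, and 172 and 156 CPM in control. In CCE it had 0 and 0.0391 CPM. Its parent Ndufs6 had 39.8 and 54.2 CPM in labelled KD, 20.9 and 16.0 CPM in labelled KD+Ccnb1, and 39.5 and 37.5 CPM in control. In CCE it had 41.1 and 43.8 CPM. The copy thus exceeded its parent in each J1 library and was near 0 in both CCE libraries. Atp5o, a stalk subunit of ATP synthase, had 95.2% and 95.0% of its counts in its copy in control and 0.12% and 0.02% in CCE.

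**Figure D1:**
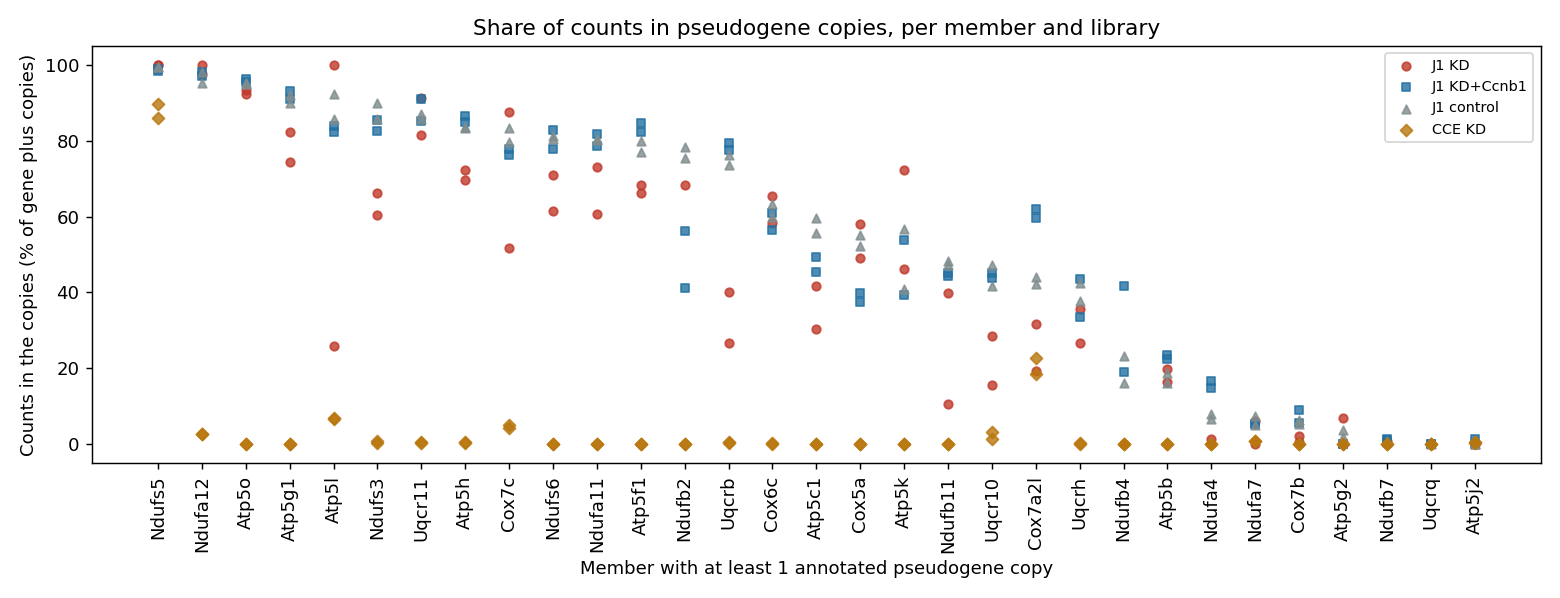
Share of counts in pseudogene copies, in percent of the counts of a gene and its copies (y axis), for the 31 members with a copy (x axis), with 2 points a group named by their labels. CCE libraries lay near 0 for nearly all members except Ndufs5 (86.1% and 89.7%) and Cox7a2l, while J1 libraries ranged up to 100%.

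Set per length of transcript and without counts in copies, the highest member in labelled KD was Cox6b2, a complex IV subunit form, at 508 and 479 CPM per kb, followed by Cox8a, the ubiquitous form of another small complex IV subunit, at 428 and 399. Atp5b, the catalytic beta subunit of ATP synthase, led in labelled KD+Ccnb1 at 457 and 460 CPM per kb, above Cox8a at 325 and 284. Cox8a led in control at 694 and 750 CPM per kb. There it was followed by Atp5b at 425 and 421 and by Cox4i1, the common form of complex IV subunit 4, at 330.1 and 329.9 CPM per kb. In CCE, Cox4i1 led at 885 and 887 CPM per kb and Atp5b followed at 760 and 804. In each of these pairs the libraries of a group did not overlap between the genes named. The order differed in J1 once counts in copies were added. Uqcr10 with its copy had 513 and 443 CPM per kb in labelled KD, which overlapped Cox6b2, and Atp5h at 450.4 and 444 lay above Cox8a there. Atp5o with its copy came second in labelled KD+Ccnb1, at 383 and 373 CPM per kb, and in control, at 615 and 641, and Uqcr11, at 530.0 and 524 in control, lay above Atp5b with its copy, at 522 and 501, and above Cox4i1. With copies Atp5b stayed first in labelled KD+Ccnb1, Cox8a in control and Cox4i1 in CCE.

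The isoform pairs of complex IV were split the same way in all groups, with 1 exception. Cox4i1 had 418 and 308 CPM per kb in labelled KD, 201 and 211 in labelled KD+Ccnb1, 330.1 and 329.9 in control and 885 and 887 in CCE, while Cox4i2, known from lung, stayed at 2.29 CPM per kb or less in every library. The heart and muscle forms Cox6a2, Cox7a1 and Cox8b and the germ-line forms Cox7b2 and Cox8c were at 10.3 CPM per kb or less, and Cox8b had counts in 1 library alone. Of the 8 untested members, 6 were such forms, and the others were Ndufb4c and Ndufs5. The exception was Cox6b2, the form known from testis. It exceeded Cox6b1, the ubiquitous form, at 508 and 479 against 181 and 190 CPM per kb in labelled KD, at 160 and 189 against 60.9 and 54.7 in labelled KD+Ccnb1, and narrowly at 157 and 151 against 148 and 149 in control. In CCE Cox6b2 was the lower one, at 89.96 and 60.3 against 154 and 154 CPM per kb for Cox6b1.

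Among the 3 genes for the membrane ring of ATP synthase, Atp5g3 led in every group when set per length of transcript. It had 108 and 47.7 CPM per kb in labelled KD, 97.0 and 101 in labelled KD+Ccnb1, 159 and 170 in control and 272 and 314 in CCE. Atp5g1 stayed between 2.16 and 9.02 CPM per kb in J1, but with its 4 copies it ranged from 27.2 to 50.7. This order rests on transcript lengths of 4715 bases for Atp5g1 and 723 for Atp5g3. In CPM with copies, Atp5g1 lay above Atp5g3 in every J1 library. The values were 239 and 160 against 78.0 and 34.5 in labelled KD, 207 and 199 against 70.2 and 73.0 in labelled KD+Ccnb1, and 146 and 128 against 115 and 123 in control. Cox5b, a zinc-binding complex IV subunit, had 8.64 and 0 CPM in labelled KD, 5.11 and 3.47 in labelled KD+Ccnb1, 5.40 and 9.71 in control and 106 and 111 in CCE. No annotated copy passed the thresholds for Cox5b, so its low J1 level has no counterpart in a copy counted here.

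Ndufa4, counted here under complex I by its symbol, is held to be a complex IV subunit. It had 37.5 and 48.9 CPM in labelled KD, 37.1 and 30.8 in labelled KD+Ccnb1 and 59.7 and 54.9 in control. Cox7a2l is known as a factor that joins complexes III and IV, and Atp5s as a coupling factor rather than a core subunit, so their values are not those of a core subunit.

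Expression was compared with edgeR's quasi-likelihood F test, two-sided, in 1 fit over the 6 J1 libraries and with p-values adjusted by Benjamini-Hochberg over all 14462 tested genes. A member is called where the adjusted p was at most 0.05. Fold changes are log2 values after TMM scaling, with an approximate standard error (SE) from the same fit. In bulk RNA, fewer cells of a type and less RNA per cell cannot be told apart. The 3 comparisons share libraries, so their values are given side by side without any test of overlap.

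The first comparison asked what differed between labelled KD+Ccnb1 and control. Respiratory chain genes were mostly lower in labelled KD+Ccnb1. Of the 81 tested members, 27 fell and 1 rose, where 10.5% of all tested genes fell and 9.35% rose. The median log2 fold change of the members was -0.78, against 0.07 over all tested genes, and 72 members had a negative value. Both labelled KD+Ccnb1 libraries lay below both controls for 65 of the 81 tested members, 80.2% of them, against 33.7% of all tested genes. A fit on these 4 libraries alone, which leaves out the noisier labelled KD libraries, called 64 members lower and 3 higher, where 30.7% of all genes were called lower and 31.4% higher. Leaving out each library in turn from the fit over all groups kept the members' median between -0.76 and -0.65, below that of all genes each time. The number called lower moved strongly with the library left out, for members and all tested genes alike, and was small without a labelled KD+Ccnb1 or control library. Of the 27 calls lower, 14 held in every other setting that left out no single library. Most of these were lost on leaving out some library.

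Summed over the coding members, the level was 4696 and 4682 CPM in labelled KD+Ccnb1, against 6552 and 6641 CPM in control. With the copies it was 6941 and 6922 CPM in labelled KD+Ccnb1, against 9536 and 9563 CPM in control, a ratio of 0.726. The groups did not overlap in either sum. By complex, again with copies, the ratio was 0.666 for complex I, 0.587 for complex II, 0.581 for complex III, 0.652 for complex IV and 0.885 for complex V.

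**Figure D2:**
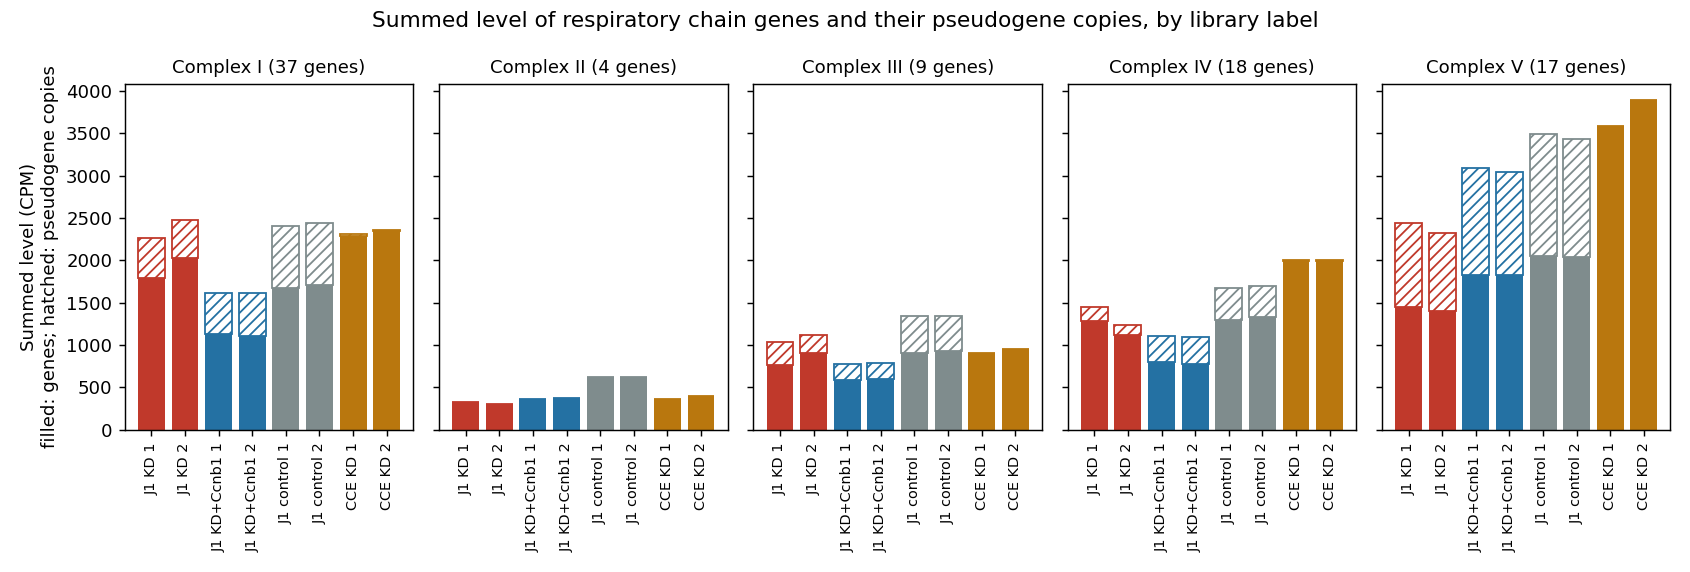
Summed level of the coding members of each complex (filled) and of their pseudogene copies (hatched), in CPM on the y axis, for the 8 libraries named by their labels on the x axis. The labelled KD+Ccnb1 bars of complexes I to IV are lower than in control, complex II has no copies, and the copies nearly vanish in CCE.

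In complex I, 13 of 38 tested members fell, with a median of -0.74. The lowest was Ndufa5, an accessory subunit, with 7.66 and 3.93 CPM in labelled KD+Ccnb1, against 24.2 and 18.1 CPM in control (log2 fold change -1.94, SE 0.50, edgeR adjusted p = 0.0481). Ndufa3, an accessory subunit of the membrane part, had 8.86 and 4.53 CPM in labelled KD+Ccnb1, against 23.3 and 16.8 CPM in control (-1.66, SE 0.43, adjusted p = 0.0474). Ndufb8, another membrane-arm subunit, had 12.3 and 12.8 CPM in labelled KD+Ccnb1, against 28.0 and 31.4 CPM in control (-1.32, SE 0.23, adjusted p = 0.0151). The groups did not overlap for any of the 3. Of 10 other settings that left out no single library, the Ndufa5 call was kept in 8, the Ndufa3 call in 7 and the Ndufb8 call in 10. Each of these calls was lost without any one of the labelled KD+Ccnb1 or control libraries. Ndufa10, an accessory subunit of the membrane arm, had 79.2 and 69.5 CPM in labelled KD+Ccnb1, against 157 and 182 CPM in control (-1.27, SE 0.13, adjusted p = 0.0029). Among the core subunits Ndufs7, which carries an iron-sulfur cluster, had 18.1 and 21.4 CPM in labelled KD+Ccnb1, against 46.3 and 38.7 CPM in control, and fell (-1.18, SE 0.30, adjusted p = 0.0451). That call was kept in 7 of 10 other settings. The others that fell were Ndufa2, Ndufa4, Ndufa7, Ndufa8, Ndufa13, Ndufb7, Ndufs6 and the pseudogene Ndufs6b. The core subunits Ndufs1 and Ndufv1 and Ndufa9 were not called. The log2 fold change was -0.30 for Ndufs1, which carries iron-sulfur clusters, -0.47 for Ndufv1, which binds NADH, and -0.45 for Ndufa9, an accessory subunit.

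Ndufa4l2, a relative of Ndufa4 known to be induced by low oxygen, was the member that rose. It had 22.1 and 21.9 CPM in labelled KD+Ccnb1, against 2.79 and 3.24 CPM in control (2.78, SE 0.62, adjusted p = 0.0306). In labelled KD it had 3.41 and 9.45 CPM, so the other J1 groups all lay below labelled KD+Ccnb1. Its call was lost with a replicate block and without any one of the labelled KD+Ccnb1 or control libraries.

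In complex II, Sdhc and Sdhb fell. Sdhc, a membrane anchor that binds heme, had 123 and 127 CPM in labelled KD+Ccnb1, against 263 and 275 CPM in control (-1.18, SE 0.08, adjusted p = 0.00112), and this call held in all alternatives run. Sdhb, the iron-sulfur subunit, had 16.0 and 14.8 CPM in labelled KD+Ccnb1, against 26.7 and 31.1 CPM in control (-0.98, SE 0.24, adjusted p = 0.04), a call kept in 7 of 10 other settings. Sdhd, the other anchor, had 116 and 121 CPM in labelled KD+Ccnb1, against 209 and 212 CPM in control, but missed the threshold (-0.91, SE 0.24, adjusted p = 0.0533). Sdha, the flavoprotein that oxidizes succinate, had 104 and 109 CPM in labelled KD+Ccnb1, against 119 and 110 CPM in control, with no call (-0.18). All 4 genes of the complex lay below control in both libraries, and the fall was called in 2.

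In complex III, Uqcrq, Uqcrh and Uqcr10 fell, all small accessory subunits, at -1.32, -1.26 and -1.21. Uqcr10 had 64.0 and 51.5 CPM in labelled KD+Ccnb1, against 122 and 132 CPM in control (SE 0.14, adjusted p = 0.00421). The catalytic and core subunits were not called, with values of -0.35 for cytochrome c1 (Cyc1), -0.08 for the Rieske protein Uqcrfs1 and -0.36 for the core protein Uqcrc1. In complex IV, 6 of 13 tested members fell. Cox6b1, a subunit that caps the cytochrome c side, had 37.6 and 33.8 CPM in labelled KD+Ccnb1, against 91.6 and 92.3 CPM in control (-1.44, SE 0.13, adjusted p = 0.00225). Cox8a had 179 and 156 CPM in labelled KD+Ccnb1, against 381 and 413 CPM in control (-1.32, SE 0.10, adjusted p = 0.00124), a call that also held in all alternatives run. The groups lay well apart for both genes. Cox4i1 had 150 and 157 CPM in labelled KD+Ccnb1, against 246 and 246 CPM in control (-0.75, SE 0.14, adjusted p = 0.0193). The others that fell were Cox7a2, Cox7b and Cox6a1. Not called were Cox5a, with 84.1 and 86.4 CPM in labelled KD+Ccnb1 against 59.9 and 54.0 CPM in control (0.51), Cox6c (-0.81, adjusted p = 0.0537) and Cox5b (-0.89, SE 1.55).

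In complex V, Atp5j2, Atp5h and Atp5d fell, a small membrane subunit, a stalk subunit and the delta subunit of the F1 part. Atp5j2 had 13.1 and 14.05 CPM in labelled KD+Ccnb1, against 33.8 and 38.8 CPM in control (-1.49, SE 0.24, adjusted p = 0.0119). Atp5d had 168 and 175 CPM in labelled KD+Ccnb1, against 286 and 272 CPM in control (-0.78, SE 0.07, adjusted p = 0.00236). Atp5b, the member of the complex with the highest CPM, was not called. It had 876 and 882 CPM in labelled KD+Ccnb1, against 814 and 807 CPM in control (0.04, SE 0.05, adjusted p = 0.589). The values were -0.11 for Atp5c1, the gamma subunit, and 0.32, -0.89 and -0.81 for Atp5g1, Atp5g2 and Atp5g3, with no call. Across the coding members, shorter coding sequences went with lower values: the median was -0.87 for the 39 shorter and -0.58 for the 39 longer, and Spearman's rho with coding length was 0.40 over 78 members, which share the same libraries. The part of length in the result was not tested.

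**Figure D3:**
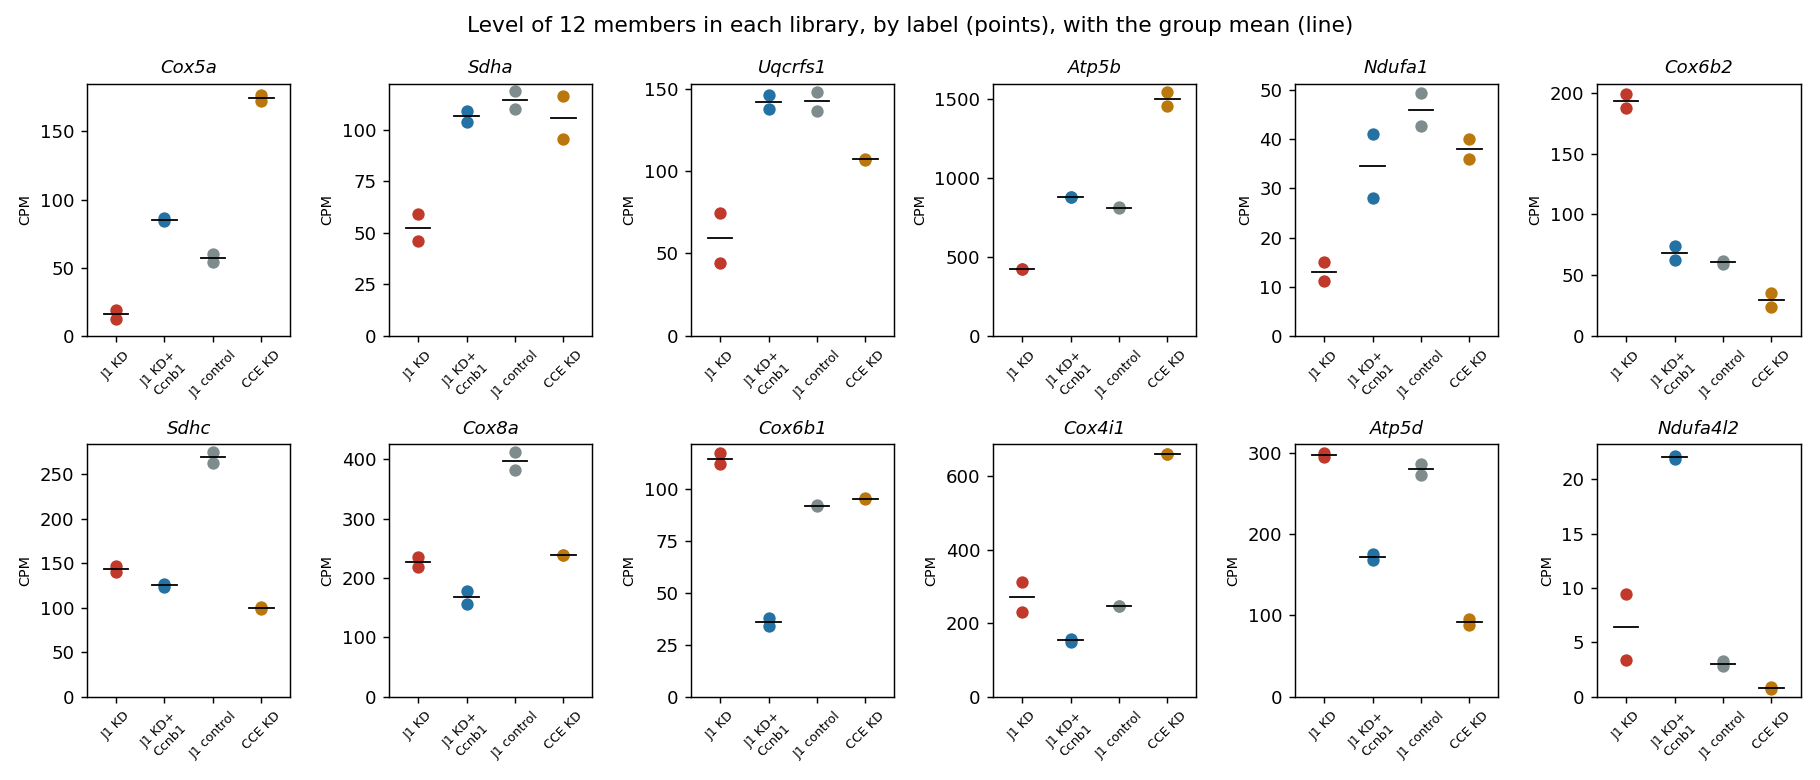
CPM of 12 members in each library (points, named by label) with the mean of each group (line). In the upper row, Cox5a, Sdha, Uqcrfs1, Atp5b and Ndufa1 are lowest in labelled KD and Cox6b2 is highest there, and in the lower row Sdhc, Cox8a, Cox6b1, Cox4i1 and Atp5d are lower in labelled KD+Ccnb1 than in control, and Ndufa4l2 is higher.

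The second comparison was labelled KD against control. Of the 81 members, 18 fell and 5 rose, where 17.9% of all tested genes fell and 11.0% rose. The share of members that fell was 22.2%, and the median was -0.22 against -0.09 over all genes. The sum with copies was 7523 and 7459 CPM in labelled KD, against 9536 and 9563 CPM in control. The ratio was 0.977 for complex I, 0.506 for complex II, 0.802 for complex III, 0.793 for complex IV and 0.689 for complex V. Without the copies complex I lay the other way, at 1794 and 2026 CPM in labelled KD, against 1675 and 1713 CPM in control, with a ratio of 1.13. With the copies added to each gene in the fit, 27 of 79 members fell (34.2%) and 3 rose (3.8%), where 17.9% of all genes fell and 11% rose. The median was then -0.45 against -0.08 over all genes. Leaving out each library in turn, in the fit without copies, kept the members' median between -0.37 and -0.22, below that of all genes each time. The number called moved with the library left out, for members and all tested genes alike, and the number called lower was smallest without a control. Other scalings moved both the members and all genes. With an offset for GC content and length, 14 members (17.3%) were called higher and 8 (9.88%) lower, where 15.6% of all genes were higher and 12% lower, and the median turned to 0.22 (0.18 over all genes). With library size only, 7 members (8.64%) were higher and 13 (16.0%) lower, against 14.2% and 14.7% of all genes. That offset moved the median of all genes to -0.11 in labelled KD+Ccnb1 against control, where the members stood at -0.66, and to -0.34 against labelled KD, where they stood at -0.75.

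Complex II was lower for 3 of its 4 genes. Sdhd had 110 and 62.0 CPM in labelled KD, against 209 and 212 CPM in control (-1.44, SE 0.25, edgeR adjusted p = 0.0118). Sdha had 45.9 and 59.2 CPM in labelled KD, against 119 and 110 CPM in control (-1.28, SE 0.16, adjusted p = 0.00444). Sdhc had 141 and 147 CPM in labelled KD, against 263 and 275 CPM in control (-1.06, SE 0.08, adjusted p = 0.00107). Sdhb, at 31.8 and 33.4 CPM in labelled KD against 26.7 and 31.1 CPM in control, had a value of 0.02 and no call. Both labelled KD libraries lay below both controls for Sdha, Sdhc and Sdhd and above them for Sdhb.

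The lowest member in labelled KD was Cox5a, with 19.3 and 12.5 CPM, against 59.9 and 54.0 CPM in control (-1.98, SE 0.24, adjusted p = 0.00373). With its copy, Cox5a had 38.0 and 29.8 CPM in labelled KD, against 126 and 121 CPM in control. Ndufa1, a membrane-arm subunit of complex I, had 11.1 and 15.0 CPM in labelled KD, against 42.7 and 49.4 CPM in control (-1.97, SE 0.31, adjusted p = 0.0084). Uqcrfs1 had 44.3 and 74.8 CPM in labelled KD, against 148 and 137 CPM in control (-1.41, SE 0.25, adjusted p = 0.0121). The groups did not overlap for these genes. Atp5j, a stalk subunit of ATP synthase, had 33.4 and 44.8 CPM in labelled KD, against 88.8 and 96.4 CPM in control (-1.40, SE 0.23, adjusted p = 0.00937). Atp5b had 423 and 425 CPM in labelled KD, against 814 and 807 CPM in control (-1.09, SE 0.05, adjusted p = 0.000293). Neither gene overlapped between the groups. Atp5g3 (-1.23) and Cox6c (-0.998) also fell, but of 10 other settings the Atp5g3 call was kept in 4 and the Cox6c call in 7, and each was lost without any one of the labelled KD+Ccnb1 or control libraries. Not called were Ndufs1 (0.16), Ndufv1 (0.20), Ndufa9 (0.19), Cyc1 (-0.49), Uqcrc1 (0.28), Cox4i1 (-0.02), Cox5b (-0.96), Atp5c1 (-0.52) and Atp5g2 (0.37). Ndufv1 had 88.7 and 181 CPM in the labelled KD libraries, on either side of the controls at 106 and 104 CPM. Its log2 fold change was -0.43 without the second labelled KD library and 0.61 without the first. Each of these fits holds 1 labelled KD library, so neither measures the spread in that group.

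Of the 5 members that rose, Cox6b2 kept its call in all alternatives run. It had 199 and 187 CPM in labelled KD, against 61.5 and 59.2 CPM in control (1.52, SE 0.13, adjusted p = 0.00128). Atp5g1 had 42.5 and 41.1 CPM in labelled KD, against 14.5 and 10.2 CPM in control (1.61, SE 0.30, adjusted p = 0.0149). Ndufs3, a core subunit of complex I, had 37.5 and 38.4 CPM in labelled KD, against 10.97 and 15.0 CPM in control (1.39, SE 0.32, adjusted p = 0.0267). For all 3 the labelled KD libraries lay above both controls. Atp5h (0.65) and Ndufa10 (0.55) also rose. With the copies added, Ndufs3 had 111 and 96.8 CPM in labelled KD, against 110 and 106 CPM in control, and the log2 fold change turned to -0.20 for Ndufs3 and -0.18 for Atp5h, with no call. Atp5g1 lost its call with the copies.

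**Figure D4:**
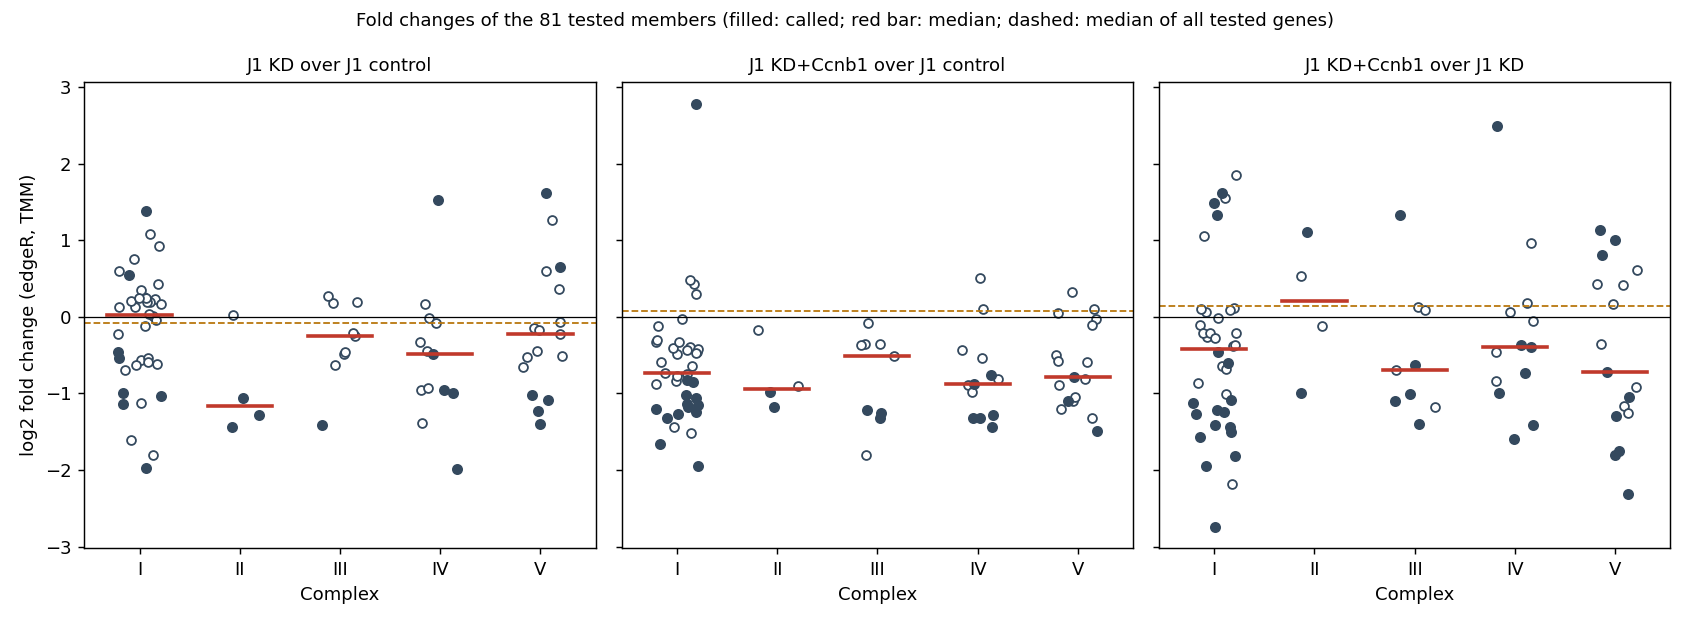
log2 fold changes (y axis) of the 81 tested members by complex (x axis) in 3 comparisons, where filled points are called, the red bar is the median of a complex and the dashed line is the median of all tested genes. Nearly all points of labelled KD+Ccnb1 over control lie below 0, and in labelled KD over control they spread to both sides of 0.

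The third comparison set labelled KD+Ccnb1 against labelled KD. Of the 81 members, 31 fell and 9 rose, where 16.0% of all tested genes fell and 22.8% rose, with a median of -0.45 against 0.14 over all genes. Leaving out each library in turn kept the members' median between -0.44 and -0.39, below that of all genes each time. The numbers called moved with the library left out, for members and all tested genes alike. Higher were Cox5a (84.1 and 86.4 CPM in labelled KD+Ccnb1, against 19.3 and 12.5 CPM in labelled KD, log2 fold change 2.49, edgeR adjusted p = 0.00122), Ndufb6 (1.61), Ndufa1 (1.49), Uqcrfs1 (1.33), Ndufc2 (1.33) and Atp5b (1.13). Sdha, Atp5a1 and Atp5j were the others that rose. Atp5b had 876 and 882 CPM in labelled KD+Ccnb1, against 423 and 425 CPM in labelled KD, with no overlap. Lower were Ndufa3 (-2.74), Atp5s (-2.31), Ndufa5 (-1.95), Ndufa10 (-1.82), Atp5k (-1.80) and Atp5h (-1.75). Ndufa10 had 79.2 and 69.5 CPM in labelled KD+Ccnb1, against 263 and 291 CPM in labelled KD (SE 0.13, adjusted p = 0.000485). Ndufs1 (-0.46), Sdhb (-1.0), Uqcrc1 (-0.63), Cox4i1 (-0.74) and Atp5g1 (-1.29) also fell. Of 10 other settings the Ndufs1 and Sdhb calls were kept in 6, that of Uqcrc1 in 7 and that of Atp5g1 in 8. With its copies Atp5g1 turned to 0.10 with no call. Not called were Ndufv1 (-0.68), Ndufa9 (-0.64), Sdhc (-0.12), Sdhd (0.54), Cyc1 (0.13), Cox5b (0.06), Cox6c (0.19), Atp5c1 (0.41), Atp5g2 (-1.26) and Atp5g3 (0.42). With the copies added to each gene in the fit, 30 of 79 members fell (38%) and 13 rose (16.5%), where 16.1% of all genes fell and 22.8% rose. The median was then -0.28 against 0.14 over all genes. The ratio of the sums with copies was 0.925. By complex it was 0.682 for complex I, 1.16 for complex II, 0.725 for complex III, 0.822 for complex IV and 1.28 for complex V.

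The libraries of labelled KD agreed less with each other than those of the other groups. Among 78 members with at least 5 CPM, 27 differed by more than 1.5-fold between the 2 labelled KD libraries, against 4 in labelled KD+Ccnb1 and 3 in control.

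Genes that build or supply the chain were read beside the members. Of 47 assembly factors, 3 fell in labelled KD+Ccnb1 against control, Uqcc3 (-1.16), Sdhaf1 (-1.05) and Pet100 (-1.19), which serve complexes III, II and IV, with a median of -0.28. Their share of 6.38% was below the 10.5% of all tested genes that fell. In labelled KD against control 9 fell (19.1%, against 17.9% of all genes) and 1 rose (2.13%, against 11.0%), so the share that fell was near that of all genes. Ndufaf5 was at 0 in both labelled KD libraries, against 8.88 and 5.40 CPM in control, Ndufaf4 fell (-1.05) and Timmdc1 rose (0.79). Against labelled KD, 6 rose and 6 fell in labelled KD+Ccnb1, 12.8% each, against 22.8% and 16.0% of all genes. Of 17 tested regulators of mitochondrial transcription and DNA, 5 rose in labelled KD+Ccnb1 against control (29.4%, where 9.35% of all genes rose) and none fell. Gabpa, the ETS factor of the NRF2 complex, had 48.4 and 37.0 CPM in labelled KD and 233 and 228 CPM in labelled KD+Ccnb1, against 90.9 and 92.8 CPM in control (1.25 for labelled KD+Ccnb1, edgeR adjusted p = 0.00358). Sp1 (1.08) and Pprc1 (0.59) also rose, with Gabpb1 and Yy1. Nrf1 was not called (-0.18). In labelled KD against control, Gabpa (-1.26), Sp1 (-0.94), Pprc1 (-0.67) and Tfam (-1.33) fell, and Tfb2m (1.504) rose. The share of regulators that fell there was 23.5%, against 17.9% of all genes, and the share that rose was 5.88%, against 11.0%. In labelled KD+Ccnb1 against labelled KD, 6 regulators rose (35.3%, against 22.8% of all genes) and 1 fell (5.88%, against 16.0%).

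Of 13 mitochondrially encoded subunits, 7 were tested. Against control, 4 fell (57.1%, against 10.5% of all genes) and 2 rose (28.6%, against 9.35%) in labelled KD+Ccnb1. There mt-Nd4 (-1.04), mt-Nd1 (-0.72), mt-Nd2 (-0.51) and mt-Cytb (-0.40) were lower, and mt-Nd5 (0.38) and mt-Co1 (0.39) higher. The 13 summed to 30162 and 29406 CPM in labelled KD+Ccnb1, against 34160 and 33003 CPM in control. In labelled KD against control, mt-Nd1 (-0.60) and mt-Nd2 (-0.64) fell (28.6%, against 17.9% of all genes). In labelled KD+Ccnb1 against labelled KD 2 rose (28.6%, against 22.8%) and 3 fell (42.9%, against 16.0%). The other 6, among them mt-Co2, mt-Co3 and mt-Atp6, were listed at or near 0 in every library, although every cell uses them. Cytochrome c itself, Cycs, had 0 CPM in both labelled KD libraries, 3.24 and 3.93 CPM in labelled KD+Ccnb1, and 4.53 and 3.12 CPM in control, and was called lower in labelled KD than in control (edgeR adjusted p = 0.0187). In CCE it had 66.9 and 69.3 CPM. Copies were sought for the coding members only, so whether counts of Cycs lay in copies in J1 was not tested.

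Promoters were searched for letters of factors known from respiratory chain genes, in the RefSeq windows (GRCm38.p6) of 250 bases before to 50 after each start. Of 68 members with a window, 17 held the NRF1 letters (GCGCA, any base, then GCGC) on either strand, 25% against 5.19% of 27025 genes. The ETS letters CCGGAAG were found in 16 (23.5% against 9.93%), the YY1 letters AANATGGCG in 10 (14.7% against 2.76%) and the ERR letters TCAAGGTCA in 2 (2.94% against 0.466%). The 250 bases before the start of Sdha and of Cox6a1 are shown because each holds several NRF1 matches and the genes differed across the groups, as their values show. Capitals mark NRF1 and ETS matches, the ETS one read from the opposite strand as CTTCCGG, and the strand is that of the gene. Sdha lies at chr13:74350241-74350490, minus strand, and Cox6a1 at chr5:115348959-115349208, minus strand.
Sdha: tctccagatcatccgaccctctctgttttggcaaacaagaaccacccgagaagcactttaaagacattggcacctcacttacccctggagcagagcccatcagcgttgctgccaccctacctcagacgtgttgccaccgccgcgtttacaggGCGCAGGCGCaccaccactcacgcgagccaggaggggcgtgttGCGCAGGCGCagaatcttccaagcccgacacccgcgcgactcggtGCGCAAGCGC
Cox6a1: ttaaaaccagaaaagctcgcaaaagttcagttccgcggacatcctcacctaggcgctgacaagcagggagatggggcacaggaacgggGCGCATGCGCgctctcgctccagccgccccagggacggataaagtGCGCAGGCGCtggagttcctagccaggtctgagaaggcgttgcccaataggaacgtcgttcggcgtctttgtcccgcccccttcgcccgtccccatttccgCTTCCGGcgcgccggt

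Sdha held 3 NRF1 matches and Cox6a1 held 2, with 1 ETS match. In labelled KD+Ccnb1 against control, 5 of the 16 tested members with NRF1 letters fell (31.2%), 7 of the 16 with ETS letters (43.8%), 4 of the 10 with YY1 letters and 0 of the 2 with ERR letters, where 33.3% of all tested members and 10.5% of all genes fell. The share with NRF1 letters was thus near that of all members. Sdha did not pass the test there and Cox6a1 did, at 100 and 90.02 CPM in labelled KD+Ccnb1, against 169 and 162 CPM in control (-0.87, SE 0.10, edgeR adjusted p = 0.00471).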

How the data were processed

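Poly-A RNA of 8 libraries was sequenced as single-end 100 bp or paired-end 150 bp reads, per the labels' protocols. Build mm9 and the tools HTSeq 0.11.2, Bowtie2 2.3.4.3, edgeR 3.26.8 and SAMtools 1.9 are listed in the submitters' processing notes, with no roles or order. The deposited values are raw gene counts per library, made by the authors. CPM were computed over all gene rows, without TMM. Tests used edgeR 4.0.16 (glmQLFit, glmQLFTest, TMM, filterByExpr) in R 4.3.3, in 1 fit over 6 J1 libraries with no replicate block, at an adjusted p of 0.05. DESeq2 1.42.0 and limma 3.58.1 (voom) gave alternatives. The test of labelled KD+Ccnb1 against control was checked on simulated data, with the same spread of a gene assumed in all 6 J1 libraries. The comparisons with labelled KD and the unequal spread between groups were not part of that check. Copies were found with BLAST 2.17.0 at 90% identity over 100 bases. The members and lists were chosen with earlier results of these data known. Named in each comparison were 20 fixed members, of which 1 is not reported here, and the 6 highest and 6 lowest called members with a mean of at least 5 CPM and no overlap. A count of 0 allows up to 3 counts, which is 0.360 to 0.834 CPM in J1 libraries, for counting error only. Promoter sequences are from RefSeq, GRCm38.p6. Other members described, and the promoters and junction stretches printed, were chosen after their values were seen. Levels per kb divide CPM by transcript length.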

Additional observations from a re-analysis of the deposited data

How the results depend on the processing

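In labelled KD+Ccnb1 against control, the members' median stayed between -0.83 and -0.66 over the planned settings and between -0.76 and -0.65 when each library was left out, and it was below that of all genes each time. Counts depended more on the setting. DESeq2 called 42 lower (51.9%, against 15.8% of all genes) and 2 higher (2.47%, against 16.3%). Voom with group quality weights called 60 lower (74.1%, against 27.9%) and 3 higher (3.7%, against 31.7%). The fit on only the 2 groups compared called 64 lower (79%, against 30.7%) and 3 higher (3.7%, against 31.4%). The offset for GC content and length called 22 lower (27.2%, against 11.6%) and 2 higher (2.47%, against 3.75%). The replicate block called none higher (1 at an unadjusted p of 0.05, with edgeR), where 6.13% of all genes were higher. It called 19 lower (23.5%, against 7.47%). Leaving out each library gave 2 to 58 lower and 0 to 3 higher: 58 without either labelled KD library, and 2 to 5 without any one of the other 4.

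In labelled KD against control, DESeq2 called 8 higher (9.88%, against 18% of all genes) and the replicate block 3 (3.7%, against 6.73%). The GC and length offset called 14 higher (17.3%, against 15.6%) and 8 lower (9.88%, against 12%). Only the 2 groups gave 2 higher (2.47%, against 5.56%) and 11 lower (13.6%, against 7.66%). Gene plus copies gave 3 higher (3.8%, against 11%) and 27 lower (34.2%, against 17.9%). Leaving out each library gave 1 to 14 higher and 3 to 37 lower, highest without either labelled KD library. In labelled KD+Ccnb1 against labelled KD, only the 2 groups gave 18 lower, and leaving out each library 3 to 19 higher and 8 to 41 lower. The cause of these differences was not tested. Replicate numbers did not pair the libraries (correlations of 0.0275, -0.002 and -0.0303), so the replicate block stands here only.

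Directions turned for these members, and none was called in the other direction in a setting that kept both libraries of each group. In labelled KD against control: Sdhb without the filter (-0.0155); Cox4i1 with DESeq2 size factors (0.0311), library size only (0.14), DESeq2 (0.0317), a mean of at least 5 CPM (0.068), the GC offset (0.47) and only 2 groups (0.006); Ndufs3 (-0.20) and Atp5h (-0.18) with copies. In labelled KD+Ccnb1 against control: Cyc1 (0.0416) and Atp5g1 (-0.18) with the GC offset, and Atp5b with only 2 groups (-0.0073). In labelled KD+Ccnb1 against labelled KD: Cox5b with library size only (-0.0235), at least 5 CPM (-0.0329) and the GC offset (-0.53), Cox6c (-0.38) and Atp5g3 (-0.12) with the GC offset, and Atp5g1 with copies (0.10). Leaving out each library gave ranges of -0.244 to 0.0465 for Atp5c1 in labelled KD+Ccnb1 against control. Against control in labelled KD they were -0.46 to 0.84 for Atp5g2, -0.28 to 0.15 for Cox4i1, -0.0365 to 0.35 for Ndufa9, -0.43 to 0.61 for Ndufv1 and -0.12 to 0.11 for Sdhb. Against labelled KD in labelled KD+Ccnb1 they were -0.87 to 7.68 for Cox5b (0 counts in labelled KD replicate 2, so the upper value is no bound) and -0.0796 to 0.503 for Cyc1. At these depths, members near 5 CPM rest on few reads in J1.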
